A study of Mus musculus with 6 samples.

Results

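The genes described here are 32 genes of glycolysis and of the response to low oxygen, a fixed list matched by symbol among the 19342 names of the deposited count table. All 32 were placed securely in all 6 libraries and had at least 1 CPM (counts scaled to the library's size) in at least 1 of them, so none was lost to a filter. The study cultured mouse (C57BL/6) mesoderm progenitor cells, taken from embryos and grown in serum-containing medium with mouse embryonic fibroblasts that mitomycin C had stopped from dividing, and asked how growth factors affect their specification. Total RNA was sequenced from 1 library in each of 6 conditions. The untreated libraries were taken at 0 h and at 96 h in culture. The others received rhBMP4 (BMP4 below) alone for 5 h or 11 h, with rhFGF8 for 5 h, or with rhFGF4 for 11 h, each after 96 h, and are labelled 101 h or 107 h in culture. Whether each library pools several embryos is not given in the sources used here, and RNA from the fibroblast layer is not separated from that of the progenitors.

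Glycolysis turns glucose into pyruvate in the cytosol. Lactate dehydrogenase can then reduce pyruvate to lactate, which monocarboxylate transporters carry out of the cell, or the pyruvate dehydrogenase complex can pass it to the mitochondria unless its kinases switch it off. In the tail end of vertebrate embryos, glycolytic activity is known to be high in the progenitors and to fall as presomitic cells mature. The hypoxia-inducible factor HIF1A, stable when oxygen is scarce, binds a short core sequence and raises many of these genes, along with others such as Vegfa and Bnip3.

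Total counts lay between 179196459 and 272743104 per library, and each condition had 1 library, so no ratio between 2 libraries has a replicate check. Both 5 h libraries lay much nearer to 0 h than to 96 h, the time after which their growth factors were added. With BMP4 at 5 h, 0.409% of 13932 genes were at least 2-fold different from 0 h and 5.52% from 96 h, and with FGF8 added these shares were 0.294% and 5.55%. All 14 tailbud and presomitic marker genes were detected in every library, with a summed level of 661 CPM at 0 h, 40.5 at 96 h, 576 with BMP4 at 5 h, 581 with FGF8 added, 281 with BMP4 at 11 h and 64.3 with FGF4 added. Of 13 red blood cell markers 11 could be placed, and their sum was 23.3, 5230, 29.9, 157, 4922 and 3219 CPM in the same order. Hba-a1 and Hba-a2 had identical levels in every library (2117 CPM each at 96 h), so this sum may hold the same reads under both names. All 11 were at least 2-fold higher at 96 h than at 0 h. The sum of 12 endothelial markers was 13.0, 130, 13.5, 14.7, 66.0 and 181 CPM, that of 10 placed fibroblast markers of 11 was 684, 1125, 723, 675, 920 and 1776 CPM, and that of 7 placed macrophage markers of 8 stayed between 2.42 and 9.71 CPM. The fibroblast markers did not move as 1. At 96 h, 7 of the 10 were at least 2-fold higher than at 0 h. Fn1, the largest part of the sum at 0 h (525 CPM), was lower at 96 h (305 CPM), as was the weakly expressed Thy1. Among all placed markers of these cell types Ptprc alone was at 0 counts, at 0 h and with BMP4 at 5 h. These marker sums therefore differed between libraries in the same direction as several results below. Whether the cell mixture differed, and its part in those results, was not tested. In bulk RNA fewer cells of a type and less RNA per cell cannot be told apart.

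Promoter sequences of RefSeq (GRCm38.p6) were matched for 31 of the 32 genes, all but Slc2a3. Shown are the 250 bases before the annotated start of 4 genes. They are the lactate dehydrogenase pair Ldha and Ldhb, both lower at 96 h than at 0 h but by unequal amounts, and Ddit4 and Pfkfb4, which moved in opposite directions in culture. The Ldha stretch is chr7:46845554-46845803 on the plus strand, before a start that lies 4329 bases inside the gene as GENCODE M21 draws it (46841475 to 46855627), and that of Ldhb is chr6:142507958-142508207 on the minus strand. The Ddit4 stretch is chr10:59951771-59952020 on the minus strand and that of Pfkfb4 is chr9:108991652-108991901 on the plus strand. Capitals mark ACGTG, a core that HIF binds, read on either strand, and an overlap of both strands (CACGTG, also the E-box that MYC and USF factors bind) was counted as 1 match.
Ldha: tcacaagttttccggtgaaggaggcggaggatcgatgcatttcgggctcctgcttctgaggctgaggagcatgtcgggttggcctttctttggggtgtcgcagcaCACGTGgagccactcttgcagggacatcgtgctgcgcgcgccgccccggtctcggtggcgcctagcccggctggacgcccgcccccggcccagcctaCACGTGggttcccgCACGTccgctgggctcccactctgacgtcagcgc
Ldhb: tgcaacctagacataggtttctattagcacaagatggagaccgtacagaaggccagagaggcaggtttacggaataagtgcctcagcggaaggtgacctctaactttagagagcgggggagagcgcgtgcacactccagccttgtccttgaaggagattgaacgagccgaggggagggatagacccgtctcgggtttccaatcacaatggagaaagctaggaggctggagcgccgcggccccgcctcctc
Ddit4: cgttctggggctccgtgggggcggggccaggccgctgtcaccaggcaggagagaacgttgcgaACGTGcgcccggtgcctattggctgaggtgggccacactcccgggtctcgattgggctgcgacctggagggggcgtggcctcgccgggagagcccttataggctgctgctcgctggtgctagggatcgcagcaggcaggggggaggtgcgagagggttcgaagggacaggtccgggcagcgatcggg
Pfkfb4: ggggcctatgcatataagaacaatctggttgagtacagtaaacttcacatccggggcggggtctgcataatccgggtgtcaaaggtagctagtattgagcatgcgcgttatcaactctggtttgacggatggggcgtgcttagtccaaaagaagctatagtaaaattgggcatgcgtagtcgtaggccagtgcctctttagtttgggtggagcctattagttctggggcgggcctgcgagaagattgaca
Ldha had 3 matches in this window and 0 in that of its other RefSeq start, Ddit4 had 1, and Ldhb and Pfkfb4 had 0. Only ACGTG was searched for. GCGTG, another form of the core, was not counted or marked, and it stands in the Ldhb, Pfkfb4 and Ddit4 windows as printed. A window with 0 matches is thus not one without a core. At least 1 match was present in 46.7% of the 45 windows of all annotated starts of the 31 genes, against 16.6% of the 32851 windows of all genes. The genes were listed for glycolysis and hypoxia, so this share describes how such a list is made up, and a match is neither a bound site nor a cause.

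Most of the 32 genes varied little across the 6 libraries. The highest library was less than 1.5 times the lowest for 26 of them, and the median of this ratio was 1.39 over the list against 1.28 over all 13932 genes analysed. The remaining 6, or 18.8%, were Slc2a3, Ddit4, Ldhb, Pfkfb4, Aldoc and Eno2, beside 27.7% of all genes analysed. Among genes with a mean of at least 5 CPM, 3 of 28 on the list (10.7%) passed 1.5 times, namely Slc2a3, Ddit4 and Ldhb, beside 15.5% of 10326 genes, and the medians were 1.35 and 1.23. Bnip3 and Pgam1, both at 1.49, lay just under it, and Aldoc at 2.16 was the lowest of those past it. Counts of the 32 genes together made up 0.543% of all counts at 0 h, 0.465% at 96 h, 0.534% with BMP4 at 5 h, 0.540% with FGF8 added, 0.507% with BMP4 at 11 h and 0.448% with FGF4 added. By the scaling used here, the lowest of the 6 levels fell in the FGF4 library for 16 genes and in the 96 h library for 7. The matching share of all genes analysed was not computed, so these counts do not set the list apart from other genes.

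**Figure D1:**
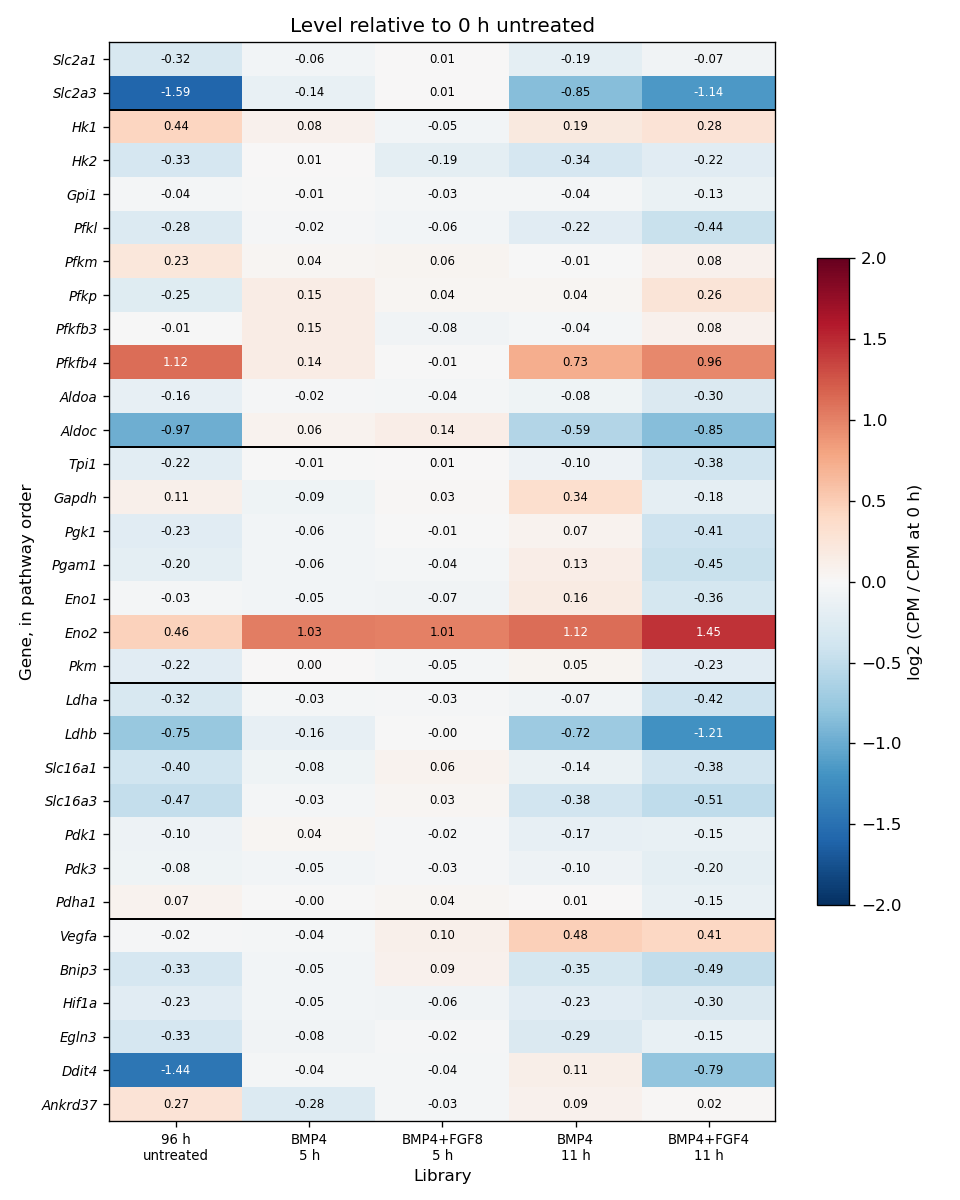
Heat map of the log2 ratio of each gene's CPM to its CPM at 0 h untreated, with the 32 genes in pathway order in rows and the other 5 libraries in columns (blue lower, red higher than 0 h). Most cells are pale, and both 5 h columns are near 0 except for Eno2. Slc2a3, Ldhb, Aldoc and Pfkfb4 stand out in the 96 h and both 11 h columns, while Ddit4 stands out at 96 h and with FGF4. Eno2 also stands out at 11 h, at 1.12 with BMP4 and 1.45 with FGF4.

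After 96 h of culture without growth factors, 2 of the 32 genes were at least 2-fold lower than at 0 h (Slc2a3 and Ddit4), where 2.38% of all genes analysed were, and 1 was at least 2-fold higher (Pfkfb4), where 3.82% of all genes were. Below these, Aldoc and Ldhb also passed 1.5-fold in the lower direction, which 5.65% of all genes did. The level was lower at 96 h for 25 genes and higher for 7, with a median log2 ratio of -0.22 beside 0.00 for all genes analysed. These log2 ratios, and the 2-fold and 1.5-fold calls made on them, were taken after adding 0.5 CPM to each level, which understates differences of weakly expressed genes. Folds given with a counting interval have nothing added.

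Of the glucose transporters, Slc2a3 (GLUT3, a high-affinity transporter, chromosome 6, 122727809 to 122801640, minus strand) varied most of the whole list. It was at 282 CPM at 0 h, 93.4 at 96 h, 255 with BMP4 at 5 h, 285 with BMP4 and FGF8 at 5 h, 156.5 with BMP4 at 11 h and 128 CPM with BMP4 and FGF4 at 11 h. The 0 h library and both 5 h libraries were high, the 96 h library was the lowest, and both 11 h libraries lay between them. The level at 96 h was 3.02-fold lower than at 0 h (95% counting interval 2.97 to 3.06). Slc2a1 (GLUT1, the widespread basal transporter) stayed between 172 CPM at 96 h and 217 CPM with FGF8. Per kilobase of all annotated exons joined (7245 bases for Slc2a3, 3506 for Slc2a1), Slc2a3 was at 38.9 and Slc2a1 at 61.3 CPM at 0 h. At 96 h they were at 12.9 and 49.2 CPM per kilobase. By this measure Slc2a1 was the higher of the pair in both. At 0 h, however, Slc2a3 was the higher by CPM (282 against 215), so the order there rests on the exon lengths used. The libraries had the same order by Slc2a3 as by the summed tailbud markers, except that FGF8 at 5 h and 0 h changed places, and the part of the cell mixture in the Slc2a3 levels was not tested.

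In the upper steps, from hexokinase to aldolase, 8 of 10 genes stayed under 1.5-fold between their highest and lowest libraries. Pfkfb4 makes a bifunctional enzyme that sets fructose 2,6-bisphosphate, an activator of phosphofructokinase (chromosome 9, 108991778 to 109032228, plus strand). It was at 3.11 CPM at 0 h, 6.76 at 96 h, 3.43 with BMP4 at 5 h, 3.10 with FGF8 added, 5.15 with BMP4 at 11 h and 6.07 CPM with FGF4 added. This is the reverse of Slc2a3, with 0 h and 5 h low and 96 h and 11 h high, and the ratio of 96 h to 0 h was 2.17 (1.99 to 2.38). With 2 CPM added in place of 0.5 its log2 ratio went from 1.01 to 0.78, under 2-fold. Its paralogue Pfkfb3, often induced by hypoxia, stayed between 23.6 and 27.7 CPM.

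Aldoc, the brain-type aldolase, was weakly expressed, at 3.30 CPM at 0 h, 1.68 at 96 h, 3.45 with BMP4 at 5 h, 3.64 with FGF8, 2.19 with BMP4 at 11 h and 1.83 CPM with FGF4. Its 0 h and 5 h levels were all above its 96 h and 11 h levels, as for Slc2a3. The main aldolase Aldoa ranged only from 266 to 327 CPM. Hk1, the housekeeping hexokinase, was highest at 96 h (20.1 CPM against 14.85 at 0 h), while Hk2, the inducible hexokinase, was lower there (59.1 against 74.5 CPM). The phosphofructokinase genes did not move together: the liver-type Pfkl was at 203 CPM at 0 h, 167 at 96 h and 149 with FGF4 at 11 h, and the platelet-type Pfkp was at 11.99, 10.1 and 14.3 CPM. Gpi1, which interconverts glucose and fructose 6-phosphates, was the steadiest gene of the list, with its highest library 1.09 times its lowest.

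Among the lower steps, from triose phosphate to pyruvate, Eno2 alone passed 1.5-fold between libraries. Eno2, the neuronal enolase, was barely expressed, at 0.468 CPM at 0 h, 0.644 at 96 h, 0.956 with BMP4 at 5 h, 0.944 with FGF8, 1.015 with BMP4 at 11 h and 1.28 CPM with FGF4. All 4 growth factor libraries were above both untreated ones, and Eno2 was the gene of the list furthest from 0 h in both 5 h libraries. Its highest library rests on 273 counts. The major genes shared another order: Gapdh, Pgk1, Pgam1 and Eno1 were all highest with BMP4 at 11 h and lowest with FGF4 at 11 h. Pkm, the pyruvate kinase, was also highest with BMP4 at 11 h, at 877 CPM, and its lowest levels, with FGF4 at 11 h and at 96 h, were the same within counting error (1.00-fold, 0.993 to 1.01). These orders depend on the scaling. By total counts, the median log2 ratio of all genes for BMP4 11 h over 0 h went from -0.012 to -0.095. Pgk1 and Pkm were then no longer highest with BMP4 at 11 h, and Pkm was lowest at 96 h alone. Gapdh, Pgam1 and Eno1 kept their highest and lowest libraries. Gapdh, which oxidises glyceraldehyde 3-phosphate, was at 387, 416, 363, 394, 489 and 341 CPM at 0 h, 96 h, BMP4 5 h, FGF8 5 h, BMP4 11 h and FGF4 11 h. Tpi1, the triose phosphate isomerase, was also lowest in the FGF4 library, at 179 CPM against 217 with BMP4 at 11 h.

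Eno1 counts are uncertain, because its near-identical retrogene Eno1b was listed with many more, at 7471 against 708 CPM at 0 h. Reads of the copies cannot be told apart here. Their sum was 8179 CPM at 0 h, 8275 at 96 h, 7982 with BMP4 at 5 h, 8019 with FGF8, 9104 with BMP4 at 11 h and 7498 with FGF4. As for Eno1 alone, the highest sum was with BMP4 at 11 h and the lowest with FGF4. Glycolytic genes such as Gapdh, Aldoa and Ldha also have processed pseudogenes, and how reads shared with those were counted is not given in the sources used here.

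Of the lactate and pyruvate genes, Ldhb was the most variable. It makes the heart-type subunit of lactate dehydrogenase, usually tied to lactate use (chromosome 6, 142490249 to 142507957, minus strand). It was at 29.5 CPM at 0 h, 17.5 at 96 h, 26.5 with BMP4 at 5 h, 29.4 with FGF8, 17.9 with BMP4 at 11 h and 12.8 CPM with FGF4. The 0 h and 5 h libraries were high, and the library with FGF4 lay below even that of 96 h. Ldha, the muscle-type subunit that favours lactate production, was at 548, 439, 536, 538, 522.5 and 411 CPM in the same order, so its lowest library was also that with FGF4. The lactate exporters Slc16a1 (MCT1) and Slc16a3 (MCT4) were both lower at 96 h than at 0 h, at 79.85 against 106 CPM and 73.7 against 102 CPM. The pyruvate dehydrogenase kinases Pdk1 and Pdk3 and the dehydrogenase subunit Pdha1, which they inhibit, each had a highest library at most 1.16 times the lowest.

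In the hypoxia group, Ddit4 (REDD1, an inhibitor of mTORC1 induced by several stresses; chromosome 10, 59949669 to 59951834, minus strand) had a pattern of its own. It was at 25.6 CPM at 0 h, 9.42 at 96 h, 24.9 with BMP4 at 5 h, 24.9 with FGF8, 27.7 with BMP4 at 11 h and 14.8 CPM with FGF4. The 96 h level was 2.72-fold lower than at 0 h (2.59 to 2.85). Unlike Slc2a3, Ddit4 in the BMP4 11 h library was as high as at 0 h, while the FGF4 library lay between that level and 96 h. Vegfa, the main angiogenic growth factor and a HIF target, was at 35.7, 35.2, 34.7, 38.35, 49.7 and 47.3 CPM in the same order. Both 11 h libraries were thus above the other 4, which held nearly the same level. Bnip3, a mitophagy receptor and HIF target, was at 37.6 CPM at 0 h and 29.8 at 96 h, and lowest with FGF4 at 26.8 CPM. Hif1a itself ranged from 90.05 to 111 CPM, and its prolyl hydroxylase Egln3 from 4.75 to 5.99 CPM. Ankrd37, another HIF target, ranged from 1.80 to 2.64 CPM and was highest at 96 h.

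**Figure D2:**
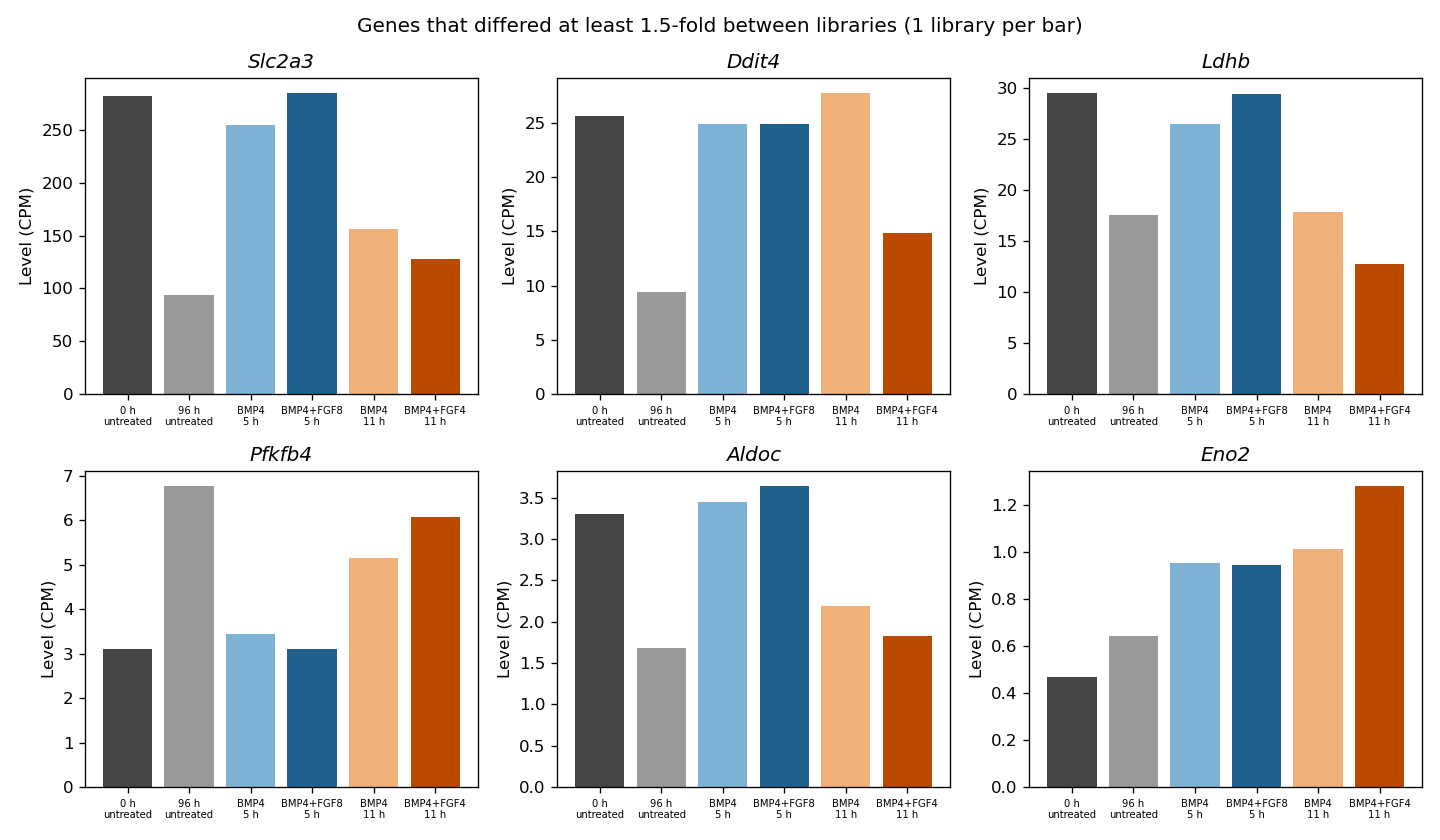
Bars give the level in CPM of the 6 genes whose highest library was at least 1.5 times the lowest, 1 library per bar and each axis starting at 0. Slc2a3, Ldhb and Aldoc are high at 0 h and 5 h, Pfkfb4 is low there, Ddit4 is also high with BMP4 at 11 h (27.7 CPM), and Eno2 is lowest at 0 h (0.468 CPM).

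The growth factor libraries were next set against 96 h untreated, by the labels the last time before factors were added. Since both libraries labelled 5 h lay near 0 h and far from 96 h over all genes, their ratios to 96 h describe these libraries as labelled, and whether their labelled time in culture holds was not tested. With BMP4 at 5 h, 2 of the 32 genes were at least 2-fold higher (Slc2a3 by 2.73-fold, 2.69 to 2.77, and Ddit4 by 2.64-fold, 2.52 to 2.77), where 2.26% of all genes were. None was at least 2-fold lower, where 3.26% of all genes were. The median log2 ratio was 0.19 beside -0.01 for all genes. With FGF8 in addition the same 2 genes were higher and Pfkfb4 was lower (log2 ratio -1.01), against 2.43% and 3.12% of all genes. Both comparisons use the 96 h library, as does that of 96 h with 0 h, so they are not independent of it. Over 0 h, by a comparison chosen after the data were seen, none of the 32 genes was 2-fold different in either 5 h library, against 0.409% and 0.294% of all genes. The largest log2 ratio was that of Eno2, at 0.59 with BMP4 and 0.58 with FGF8. Without the added 0.5 CPM, which weighs heavily on so low a gene, Eno2 was 2.04-fold (1.60 to 2.61) and 2.02-fold (1.58 to 2.58) higher.

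With BMP4 at 11 h, Ddit4 was at least 2-fold higher than at 96 h (2.94-fold, 2.80 to 3.09) and no gene was 2-fold lower, against 2.05% and 0.258% of all genes. Slc2a3 was 1.68-fold higher (1.65 to 1.70) and Vegfa 1.41-fold higher (1.37 to 1.45). The median log2 ratio of the list was 0.09. With FGF4 in addition, none of the 32 genes was 2-fold different from 96 h in either direction, against 1.1% higher and 0.1% lower of all genes, and the median was -0.09. Ddit4 was more than 1.5-fold higher, at a log2 ratio of 0.63, where 4.7% of all genes were. Eno2, at 0.64, also passed 1.5-fold, but was analysed only because it reached 1 CPM in the 11 h libraries.

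Adding an FGF to BMP4 left all 32 genes within 2-fold of BMP4 alone. For FGF8 at 5 h the log2 ratios lay between -0.23 and 0.20 with a median of 0.01, and 2-fold was reached by 0.172% of all genes upward and 0.0215% downward. For FGF4 at 11 h they lay between -0.88 (Ddit4) and 0.23, with a median of -0.13 beside -0.03 for all genes, and 2-fold was reached by 1.16% of all genes upward and 0.668% downward. The 7 genes of the lower steps had a median of -0.49, with Pgam1, Gapdh, Eno1 and Pgk1 the lowest, and Gapdh was 1.43-fold lower with FGF4 (1.42 to 1.45). Of the other lists, described below, the median was -0.13 for 17 tricarboxylic acid cycle genes and -0.11 for 8 pentose phosphate genes. For pyruvate entry it was -0.1, for further glycolysis genes -0.07 and for further HIF targets -0.05. Gluconeogenesis was at 0.04, as were the oxygen sensors and HIF subunits. Scaling by total counts moved the median of all genes in this comparison from -0.03 to 0.11 and that of the list from -0.13 to 0.01, so the list was lower than all genes by about the same amount under both. In the FGF4 library the tailbud sum was 64.3 against 281 CPM and the fibroblast sum 1776 against 920 CPM, and their part in these differences was not tested.

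The time of exposure could be compared in 2 pairs of libraries that share none, BMP4 at 11 h over 5 h and BMP4 with FGF4 at 11 h over BMP4 with FGF8 at 5 h. In the first pair no gene of the list was 2-fold different, against 2.35% of all genes higher and 0.337% lower, and Slc2a3 was more than 1.5-fold lower (1.63-fold, 1.61 to 1.65), where 1.67% were. In the other pair, Slc2a3 and Ldhb were at least 2-fold lower and none was higher, against 1.84% of all genes lower and 4.45% higher. There Aldoc and Ddit4 also passed 1.5-fold downward and Pfkfb4 upward, where 4.38% and 9.45% of all genes did. Both 11 h libraries were below both 5 h libraries for 17 genes of the list (53.1%), where 34.1% of all genes analysed were, and above for 5 genes (15.6%), where 26.9% were. Those above were Pfkfb4, Vegfa, Hk1, Ankrd37 and Eno2, of which Eno2 reached 1 CPM in the 11 h libraries alone and was bound to be among them. The other 10 overlapped.

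Fitted over these 4 libraries with edgeR's quasi-likelihood test, Slc2a3 passed an adjusted p of 0.05, with a log2 ratio of 11 h over 5 h of -0.93 and an adjusted p of 0.0372, being lower in 2 of 2 pairs. It was the only gene of the list to pass, where 0.448% of 16961 genes were lower and 2.45% higher. The call was lost when either 5 h library was left out, with log2 ratios of -1.0 and -0.84 and edgeR adjusted p of 0.259 without BMP4 5 h and 0.294 without FGF8 5 h. It was kept without either 11 h library, with edgeR adjusted p of 0.000109 without BMP4 11 h and 0.000212 without FGF4 11 h. Of the rest, Slc16a3, Aldoc, Pfkfb4, Vegfa, Ldhb and Bnip3 had edgeR adjusted p between 0.0547 and 0.0638, with log2 ratios of -0.45, -0.82, 0.78, 0.41, -0.87 and -0.435. The FGF given differs within and between the 2 times, so these are not replicates of a condition, and the p-values measure the spread between these libraries only. DESeq2, which called 13.7% of all genes where edgeR called 2.9%, called 2 genes of the list higher and 5 lower, Slc2a3 (adjusted p = 5.99e-10) and Ldhb (6.08e-05) among the latter.

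**Figure D3:**
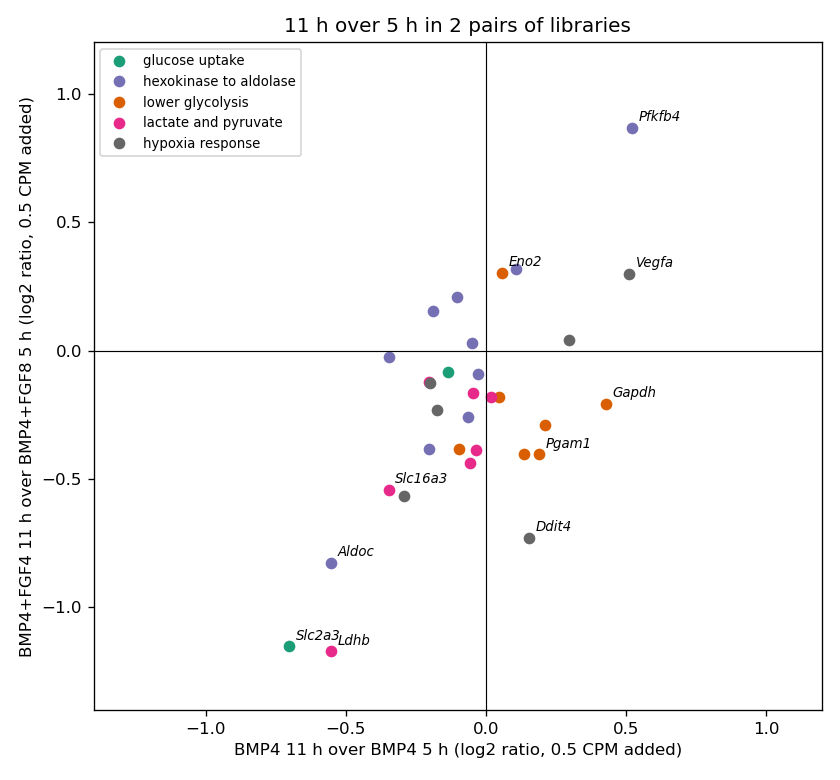
Each point is 1 of the 32 genes, with the log2 ratio of BMP4 11 h over BMP4 5 h across and that of BMP4 with FGF4 11 h over BMP4 with FGF8 5 h upward (0.5 CPM added), coloured by step. Slc2a3, Ldhb and Aldoc lie low in both pairs, Pfkfb4 and Vegfa high in both, and Gapdh, Pgam1 and Ddit4 are above 0 across and below 0 upward.

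The count ratio of 2 genes within a library needs no scaling between libraries, and showed which paired genes changed unequally. Slc2a3 had 1.31 counts per count of Slc2a1 at 0 h, 0.542 at 96 h, 1.23 with BMP4 at 5 h, 1.31 with FGF8, 0.830 with BMP4 at 11 h and 0.625 with FGF4. Ldhb had 0.0538, 0.0399, 0.0494, 0.0547, 0.0342 and 0.0311 counts per count of Ldha in that order. Both ratios were thus highest at 0 h and 5 h, but that of the dehydrogenases was lower in both 11 h libraries than at 96 h, while that of the transporters was higher in both. Hk2 over Hk1 went from 5.01 at 0 h to 2.94 at 96 h and was 3.47 and 3.55 in the 11 h libraries. Pfkfb4 over Pfkfb3 went from 0.125 to 0.274, and was 0.212 and 0.231 at 11 h. The ratio of the kinases Pdk3 and Pdk1 differed by at most 1.12 times between libraries and that of the exporters Slc16a3 and Slc16a1 by at most 1.23 times.

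**Figure D4:**
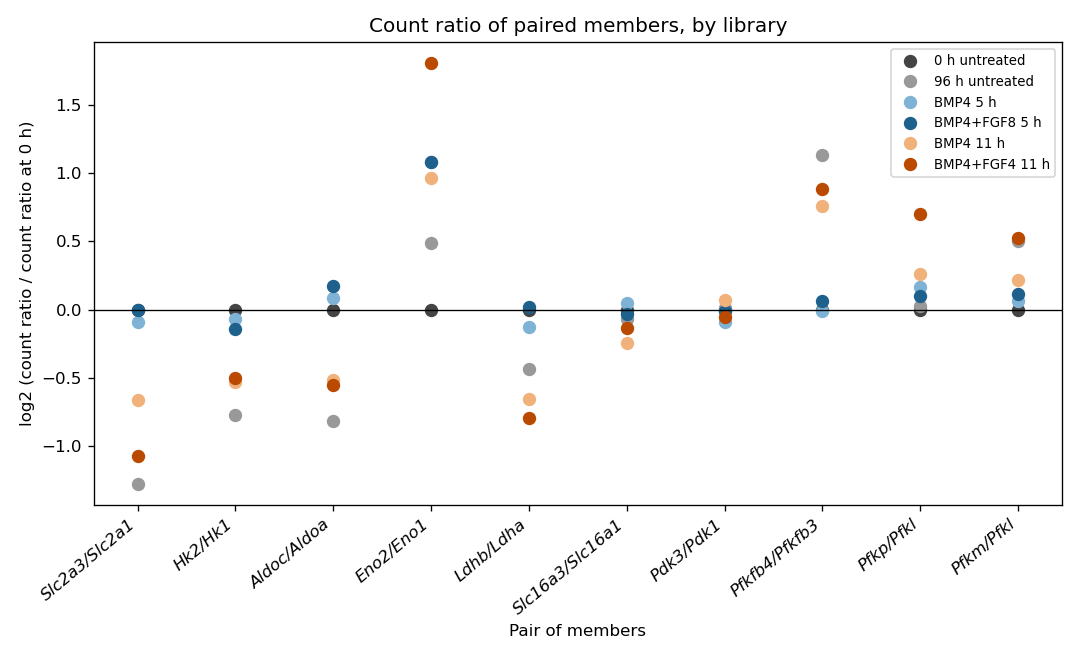
For 10 pairs of genes, points give the log2 of the count ratio in each library relative to that ratio at 0 h untreated, coloured by library. The transporter, hexokinase, aldolase and lactate dehydrogenase ratios lie below 0 in the 96 h and 11 h libraries, the Pfkfb4 to Pfkfb3 ratio lies above, and the Pdk3 to Pdk1 ratio stays near 0.

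Other genes of sugar and oxygen metabolism were described from separate lists. All 17 genes of the tricarboxylic acid cycle and all 8 of the pentose phosphate pathway stayed within 2-fold in the comparison of 96 h with 0 h, with medians of 0.05 and -0.01. In that comparison 6.2% of all genes analysed were 2-fold different in either direction, so lists this short would hold few such genes. Of 19 further glycolysis genes analysed, Hk3, a hexokinase of blood cells, was higher at 96 h (2.23 against 0.321 CPM) and 0 were lower. Of 10 genes of pyruvate entry into mitochondria and 2 of gluconeogenesis 0 were 2-fold different. Among 8 oxygen sensors and HIF subunits, Epas1 (HIF2A, prominent in endothelium) was higher at 96 h, at 5.81 against 1.12 CPM, and it was highest with FGF4 at 8.99 CPM. It was at 1.53 and 1.36 CPM in the 5 h libraries and at 3.60 CPM with BMP4 at 11 h, the order in which the endothelial marker sum also ran apart from 5 h. Of 23 HIF targets on a further list, which also holds Ankrd37, the stress-response gene Ndrg1 was higher at 96 h (6.66 against 2.39 CPM) and the secreted glycoprotein gene Stc2 lower (4.25 against 9.11 CPM). Hk3, Epas1 and Ndrg1, whose means were under 5 CPM, were chosen after their values were seen.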

How the data were processed

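Counts per gene, not normalized, were made by the authors. Named without roles, per the submitters' processing notes, are STAR 2.4.0e, cutadapt, DESeq, HTSeq and build mm10. For the counting settings, use of strand included: not given in the sources used here. Per the labels, the kit was a stranded total RNA kit. The 4 growth factor columns hold 19415 to 19826 values beside 19342 names. Each was placed by an order-preserving pair hidden Markov model on the range of both untreated columns, names sorted without regard to case. Genes with a posterior of at least 0.95 in all 4 columns were kept (17082, with 99.2% to 99.3% of counts). The lowest of the 32 was Egln3 at 0.972, and this limit was set after the posteriors were seen. All 32 took the same rows when placed on either untreated column alone and in direct alignment of both columns of a time. CPM use TMM (edgeR 4.0.16, R 4.3.3). The 13932 genes that reached 1 CPM in any library were analysed. A gene was called at 2-fold after adding 0.5 CPM. Intervals are exact (Clopper-Pearson), 95%, and cover counting error only. Between 65.4% and 70.9% of values from 1 to 20 are even. The cause was not tested, and intervals would be too narrow had both reads of a pair been counted. The test was edgeR's quasi-likelihood test with Benjamini-Hochberg adjustment over all 16961 genes that passed its filter, with DESeq2 1.42.0 as an alternative. The procedures were tested on simulated data. Coordinates and exon lengths are from GENCODE M21 (GRCm38, the build of mm10). All 32 genes are named, with every library's value for those that passed 2-fold or 1.5 times between libraries, and from other lists up to 4 genes past 2-fold with a mean of at least 5 CPM (Stc2). Hk3, Epas1 and Ndrg1 fall outside this rule. The members and lists were chosen with earlier results of these data known.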

Additional observations from a re-analysis of the deposited data

How the results depend on the processing

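No paired analysis was possible because each condition has 1 library and no number in the labels ties libraries of different conditions. With 2 CPM added in place of 0.5, no gene of the list was 2-fold higher at 96 h than at 0 h (0 against 1) and none 2-fold lower with FGF8 at 5 h than at 96 h (0 against 1), both times through Pfkfb4, at 0.78 and -0.78. With total count scaling, the median of the list for FGF4 over BMP4 at 11 h was 0.01 and Pfkfb4 was again under 2-fold with FGF8 at 5 h (0 lower). In the test of 11 h against 5 h, DESeq2 called 2 genes of the list higher and 5 lower (13.7% of all genes called), a term for FGF gave 2 lower (Slc2a3 and Ldhb; 4.2% of all genes), and leaving out a library gave 0 to 5 higher and 0 to 16 lower. Without BMP4 5 h or FGF8 5 h no gene of the list was called in either direction, where 0.123% and 0.182% of all genes were. Without BMP4 11 h 3 were higher and 16 lower (37.0% of all genes called), and without FGF4 11 h 5 were higher and 6 lower (21.7%). A time left with 1 library was assumed to vary like the other. Among the counts and medians of the list, 241 values under other settings were within 1.5 times, or 0.1 on the log2 scale, of the value given. Another 13 moved further, and none of these counts and medians changed direction past a threshold. Single genes are not covered by this. Pgam1 and Eno1 had log2 ratios of 0.19 and 0.21 for BMP4 11 h over BMP4 5 h. For FGF4 11 h over FGF8 5 h they had -0.4 and -0.29. The direction of both in the test therefore depended on which 11 h library was left out. A filter at 5 CPM dropped Aldoc, Eno2 and Ankrd37, placement on the 0 h column alone dropped Eno2, and a posterior of 0.99 dropped Egln3. Depth limits Eno2 most, with 102 to 273 counts per library.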
